A study of Mus musculus with 4 samples.

Results

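Among 42781 mouse mammary gland cells that had been isolated as CD45+ leukocytes, 69 barcodes met a count rule for epithelial markers, a share of 0.161% (95% exact binomial interval 0.126% to 0.204%). They were chosen by their own counts of unique molecular identifiers (UMIs, 1 per captured transcript). A member had at least 4 UMIs summed over Epcam, an epithelial adhesion molecule, and the keratins Krt8, Krt18, Krt14 and Krt5. It also had no UMI of the T cell genes Cd3e, Cd3d and Cd3g or of the B cell genes Cd79a and Ms4a1, and at most 1 UMI of the macrophage genes C1qa, C1qb and C1qc. Only barcodes with 500 UMIs or more, 300 detected genes or more and no more than 10% mitochondrial transcripts were counted as cells. At least 1 keratin UMI was found in 62 of the 69, and the other 7 rest on Epcam alone and are described apart. The values of these genes chose the members and are given as a description only.

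The study examined immune cells of the mammary gland from the nulliparous stage through pregnancy, milk production and the shrinking of the gland afterwards, in 2 pooled libraries, called the first and the second one here by the year in their names (given over the panels of the figures). Within a library, animals were marked with hash tags, antibodies that carry a short DNA barcode. The first library used the tags HT2, Nulliparous, Gestation and Lactation. The second library used HT2, Gestation, Lactation, Involution, Regression, Balb/c and GF, and its Nulliparous tag had a total of 1 count. The deposited sheets give HT2 the name Germ-free. For the first library the titles disagree with this, since they mention involution but nothing germ-free, so the tag is called HT2 here. The sources used here give no strain other than Balb/c, no age, no count of animals behind a tag and no stage for Balb/c and GF. Each tag in each year is therefore 1 sample, and the intervals below cover counting error only, not the spread between animals.

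The mammary epithelium has an inner luminal and an outer basal layer. Luminal cells hold the alveolar cells, which make milk under prolactin, and hormone-sensing cells, which carry the receptors for estrogen, progesterone and prolactin. Basal cells are largely myoepithelial: they contract under oxytocin and push milk into the ducts. Neither type carries CD45, the protein encoded by Ptprc, on which the cells of this study were selected.

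The first library held 22 members of 21604 cells (0.102%, interval 0.0638% to 0.154%) and the second library held 47 of 21177 (0.222%, interval 0.163% to 0.295%). The cells of the 2 libraries had medians of 1599 and 3049 UMIs, and 139 cell barcodes occurred in both. The depth of a barcode enters the rule, since 4 marker UMIs are reached more easily in a deep cell. Cells with a Cd3e UMI were set beside the members, since T cells should lack the epithelial genes. Of these cells, 0.145% reached 4 marker UMIs in the first library (7 of 4813, median 1866 UMIs). In the second library 0.221% did (16 of 7227, median 3475 UMIs). The Cd3e cells are not a background free of epithelial cells or doublets. They include a barcode of 27129 UMIs with a marker sum of 45 in the first library. In the second library they include a barcode of 58125 UMIs with a marker sum of 321. Their shares therefore cannot show how often background alone meets the rule. Whether the share of members lies above background was thus not tested, and the genes outside the rule are given below for that reason. Under the rule, 5 members of the first library and 7 of the second library lay just inside the threshold with a marker sum of 4, and 18 and 17 barcodes lay just outside it with a sum of 3. Of the barcodes just outside it, 17 of 18 in the first library and 3 of 17 in the second library had Epcam as their only marker.

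Members were called luminal where the sum of Krt8 and Krt18 was at least 2 UMIs and at least 2-fold that of Krt14, Krt5 and Acta2 (smooth muscle actin), and basal in the opposite case. Of the 69 members, 44 were luminal, 15 basal and 2 mixed, and 8 were neither. The first library had 9 luminal members (40.9%, interval 20.7% to 63.6%), 7 basal, 1 mixed and 5 of neither kind. The second library had 35 luminal members (74.5%, interval 59.7% to 86.1%), 8 basal, 1 mixed and 3 of neither kind. Luminal members were spread widely in depth, from 2934 to 33284 UMIs in the first library and from 500 to 78723 UMIs in the second library. Basal members ranged from 2436 to 10483 UMIs in the first library and from 2816 to 13167 UMIs in the second library. Scrublet, a caller of simulated doublets, marked no member as a doublet.

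**Figure D1:**
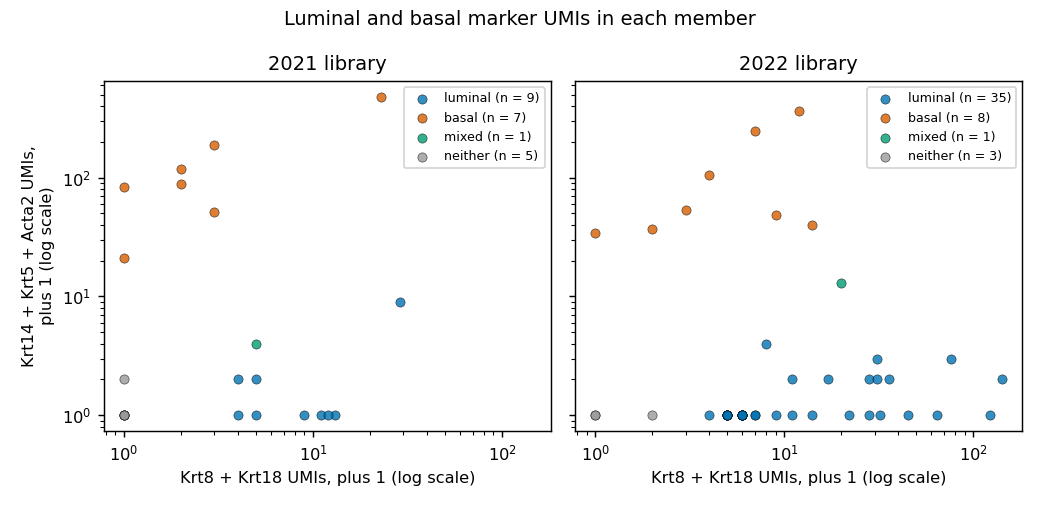
UMIs of Krt8 and Krt18 (x axis) against UMIs of Krt14, Krt5 and Acta2 (y axis), both plus 1 on log scales, with 1 point per member and colors for the class given by these counts. Basal members sit high on the y axis and luminal members low on it, and the 2 mixed members lie between them.

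Of the 8 members of neither kind, 7 had Epcam but no keratin UMI, and the label epithelial goes against their other counts. All 5 of the first library had 4 to 6 Epcam UMIs and 0 keratin UMIs. Of these, 4 carried genes of antigen presentation, with 42 to 72 UMIs of Cd74 (the invariant chain of MHC class II) and 29 to 43 of H2-Aa (an MHC class II chain). The other one held 2234 UMIs of Igkc (the kappa light chain of antibodies) and 246 of Jchain (the joining chain of secreted antibodies) among 6346 UMIs. In the second library, 1 such member had 170 UMIs of Cd74, and 1 had 25 UMIs of Gzmb (a cytotoxic granule protease), 25 of Cd7 and 10 of Itgae (an integrin of tissue lymphocytes). The last one had 899 UMIs with 3 of Epcam, 1 of a keratin and 33 of the milk protein genes. Milk protein transcripts in the 5 members of the first library reached 4.05 per 10000 UMIs together, against 20.3 in the pooled Cd3e cells. That pooled level is raised by a few barcodes, the highest at 4665. The median Cd3e cell had 6.97, and these 5 had a median of 4.73 and a range of 0 to 9.51. A Ptprc UMI was found in 5 of these 8 members. The count of members with at least 1 keratin UMI is 17 in the first library and 45 in the second library.

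Luminal and basal members were low in leukocyte transcripts, a level that the rule set in part. It had left out barcodes with T cell, B cell or macrophage UMIs. Of the left-out barcodes with luminal keratins, 66.7% had a Ptprc UMI in each library. Ptprc was seen in 1 of 9 luminal members in the first library and in 9 of 35 in the second library, and in 1 of 7 and 2 of 8 basal members, against 79.5% and 92.4% of the other cells. Per 10000 UMIs, Ptprc stood at 0.119 and 0.706 in luminal members, at 2.02 and 1.01 in basal members, and at 10.1 and 13.8 in the other cells. Over 13 leukocyte genes together, luminal members had 7.76 and 7.86 UMIs per 10000, basal members 19.2 and 21.5, and Cd3e cells 342 and 165. Single members departed from this. A luminal member of the second library with several tags and 5631 UMIs had 90 leukocyte UMIs, of which 15 were Ptprc. Another, with several tags and 34970 UMIs, had 42 UMIs of the 5 endothelial genes. The luminal member on the Nulliparous tag of the first library had 37 UMIs of Cd74 and 23 leukocyte UMIs.

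Genes outside the rule that mark epithelium were also higher in the luminal members, and no test was made of members against other cells, which come from the same pools. Of 12 such genes, 10 stood above the other cells in luminal members of the first library and all 12 in those of the second library, with 20.5 and 23.6 UMIs per 10000 together against 1.38 and 2.32 in the other cells. The share of all genes that stood above the other cells is not given, so such counts of genes, here and below, have no background beside them. The tight junction gene Cldn3 stood at 4.06 and 1.76 per 10000 in luminal members and at 0.0126 and 0.0489 in the other cells. Krt19, a keratin of simple epithelia, stood at 3.34 and 6.87 against 0.0179 and 0.220. The exceptions in the first library were Cdh1 (E-cadherin), at 0.239 per 10000 in luminal members and 0.310 in the other cells, and Krt7, which had 0 UMIs in luminal members. Skin and serosal lining were checked in the same way. The 10 genes of the keratinocyte list summed to 7.07 and 5.87 per 10000 in basal members and 0.955 and 0.942 in luminal members, against 0.131 and 0.243 in the other cells. Krt15, a keratin of basal cells, with 19 and 17 UMIs, and Sfn, with 2 and 18, made up the list in basal members. In luminal members Sfn had 4 and 42 UMIs and Sbsn 2 and 10. Krt1, Lor, Krtdap, Dsg1a and Krt6a had 0 UMIs in luminal and basal members of both libraries, and so had the 5 mesothelial genes.

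**Figure D2:**
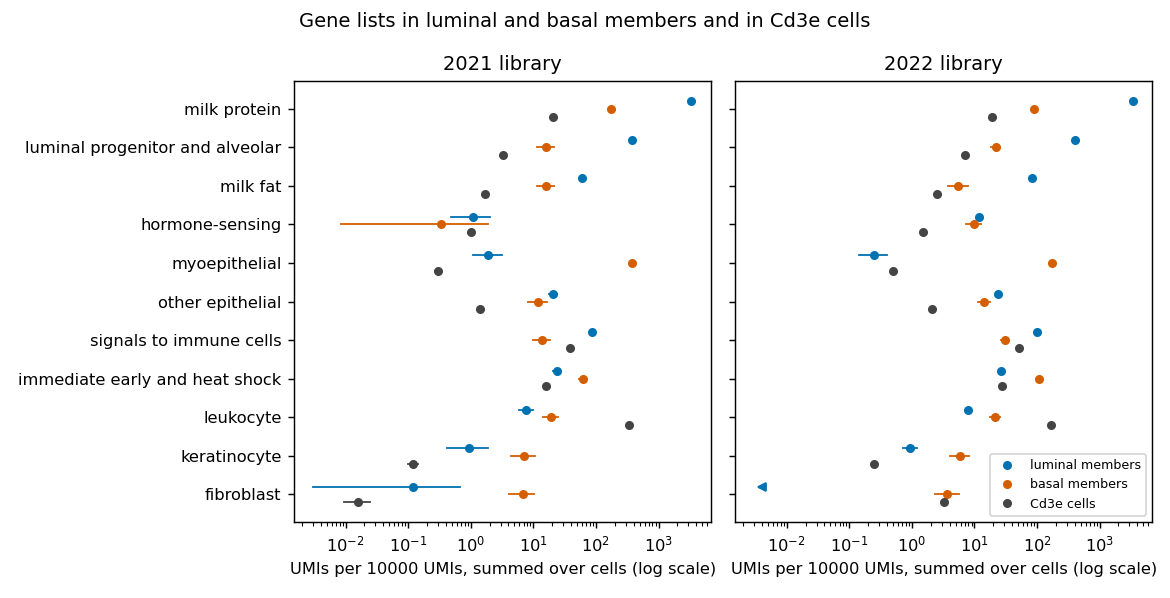
UMIs per 10000 UMIs of 11 gene lists (y axis, x axis on a log scale) summed over luminal members, basal members and Cd3e cells of each library, with 95% Poisson intervals for counting error. The triangle at the left edge of the second panel marks a list at 0 UMIs, the fibroblast list in luminal members.

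Milk protein genes took a large part of the pooled UMIs of luminal members, at levels that varied widely from cell to cell. The 8 milk protein genes, namely the caseins Csn1s1, Csn1s2a, Csn1s2b, Csn2 and Csn3, Lalba (alpha-lactalbumin, which makes lactose with its partner enzyme), Wap (whey acidic protein) and Glycam1 (a milk mucin), were summed. They took 3288 of every 10000 UMIs in the 9 luminal members of the first library and 3461 in the 35 of the second library, against 20.3 and 18.9 in pooled Cd3e cells. The median Cd3e cell had 6.97 and 7.51. The 22 members of the first library held 31.5% of all milk protein UMIs found in the 21604 cells, and the 47 members of the second library held 37.6% of those in 21177 cells. In the first library most of this came from 2 barcodes: the mixed member with several tags held 28078 of the 56157 milk UMIs and a luminal member on the Gestation tag 22317. Without the mixed members, the shares were 15.8% and 32.2%, and the luminal members alone held 15.5% and 32.1%. All 8 genes were higher per 10000 UMIs in luminal members than in the other cells of both years.

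Single luminal members differed by orders of magnitude. In the first library they ranged from 122 to 6705 milk UMIs per 10000, with a median of 1018. In the second library they ranged from 1.00 to 5597, with a median of 985, and 12 of the 35 were under 200. The highest of the first library, on the Gestation tag, had 22317 milk UMIs among 33284. This cell gave 77.4% of the Csn2 UMIs of the luminal members of that year, 94.2% of those of Wap and 99.8% of those of Csn1s2b, so the pooled levels of the first library are largely its own. In the second library no luminal member gave more than 32.1% of the UMIs of a milk protein gene. Its pooled level still came mostly from a few deep barcodes. Of the 220578 milk UMIs of its luminal members, single barcodes of over 30000 UMIs held 42930, 39989, 34556, 27244, 27031 and 20194. Seen gene by gene, Csn2 was found in 9 of 9 luminal members of the first library and 32 of 35 of the second library. Wap was found in 7 and 25 of them, with medians of 2.97 and 61.1 per 10000 and maxima of 772 and 2133. Csn1s2b was found in 3 of 9 and 16 of 35.

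**Figure D3:**
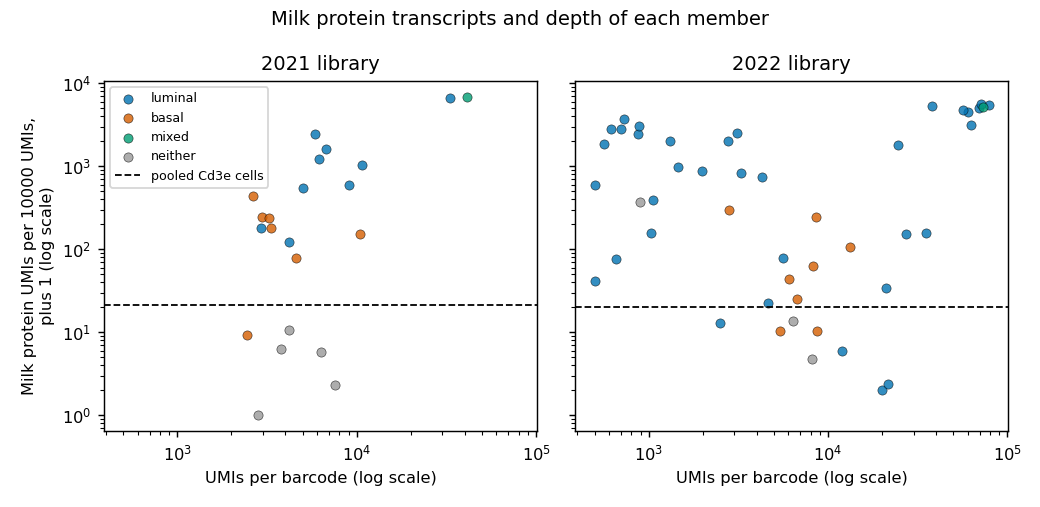
Milk protein UMIs per 10000 UMIs, plus 1 (y axis), against the UMIs of the barcode (x axis), both on log scales, for each member by class. The dashed line is the pooled level of Cd3e cells (20.3 and 18.9), below which all 5 members of neither kind in the first library lie and above which all 9 luminal members of the first library lie. The median Cd3e cell lies lower than this line, at 6.97 and 7.51.

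Csn1s1, Csn2 and Glycam1 are shown with their promoters because they are milk protein genes with a short motif upstream of the start. Prolactin acts on milk genes through the factor STAT5, whose textbook site is TTCNNNGAA, a motif that reads the same on both strands. Promoters (300 bases, from 250 before to 50 after the start) were taken from RefSeq, GRCm38.p6. They were found for 6 of the 8 milk protein genes, not for Csn3 and Csn1s2b. The motif lay in 4 of these 6, not in Lalba and Wap, and in 8.30% of all 32851 promoters of the table. In the 250 bases before the start, printed 5′ to 3′ along the gene's strand with the motif in capitals, it began at position -100 for Csn1s1 (chr5:87665958-87666207, + strand), -93 for Csn2 (chr5:87699426-87699675, - strand) and -145 for Glycam1 (chr15:103565082-103565331, - strand). In Csn1s2a it began 20 bases after the start, outside the stretch shown. A match describes these letters only.
Csn1s1: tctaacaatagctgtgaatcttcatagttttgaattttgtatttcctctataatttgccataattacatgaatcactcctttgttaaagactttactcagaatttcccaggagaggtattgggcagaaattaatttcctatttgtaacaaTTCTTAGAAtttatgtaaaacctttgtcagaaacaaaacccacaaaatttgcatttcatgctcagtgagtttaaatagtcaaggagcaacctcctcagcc
Csn2: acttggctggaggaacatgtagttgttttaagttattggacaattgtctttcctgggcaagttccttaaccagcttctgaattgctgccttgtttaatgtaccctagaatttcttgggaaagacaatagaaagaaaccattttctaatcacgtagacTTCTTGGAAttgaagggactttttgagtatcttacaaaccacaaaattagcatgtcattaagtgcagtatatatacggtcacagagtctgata
Glycam1: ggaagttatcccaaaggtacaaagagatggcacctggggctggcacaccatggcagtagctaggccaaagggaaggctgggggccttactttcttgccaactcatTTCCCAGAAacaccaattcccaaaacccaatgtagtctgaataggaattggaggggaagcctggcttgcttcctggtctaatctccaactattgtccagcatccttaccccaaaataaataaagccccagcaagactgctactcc

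The luminal members also carried the other genes of milk-making cells. Elf5, a transcription factor of alveolar cells, was found in 7 of 9 luminal members of the first library and 23 of 35 of the second library, at 2.51 and 4.41 per 10000, against 0.0193 and 0.0805 in the other cells. Wfdc18, a secreted protein, stood at 187 and 194 per 10000 in luminal members and at 5.05 and 4.36 in basal ones. Trf (transferrin) stood at 135 and 136 in luminal members and at 3.03 and 5.37 in basal ones. In the first library 1 luminal member held 839 of the 1131 Trf UMIs, at a median of 41. Genes of milk fat followed: Btn1a1, a coat protein of milk fat globules, stood at 8.12 and 6.21, and Fabp3, a fatty acid carrier, at 24.8 and 51.9, against 0.0329 and 0.0847, and 0.251 and 0.545, in the other cells. Single luminal members carried much of Fabp3, with medians of 2 and 0 UMIs and maxima of 144 and 910. Ranked by the ratio of luminal to basal levels, the 10 leading genes of each year had 6 in common: Csn1s2a, Csn2, Csn3, Lalba, Spp1 and Wfdc18. Ranked by the ratio of all members to the other cells, the 20 leading genes of each year had 5 in common: Btn1a1, Csn1s2a, Folr1 (a folate receptor), Lalba and Lao1 (an amino acid oxidase). In the first library that list began with Igfbp5, Oxtr and Acta2, and in the second library with Cck, Hhipl2 and Atp2c2 (a calcium pump).

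Some milk RNA lay outside cells. In the first library, whose deposited matrix includes near-empty barcodes, the 746112 barcodes of at most 100 UMIs held 187 milk protein UMIs per 10000 (interval 185 to 188), and the Cd3e cells 20.3. Of the 9 luminal members of that year, 7 were above 187, since the lowest had 122 and 177. Basal members stood at 174 and 89.4 per 10000 together, with 8.21 to 434 in the first library and 9.20 to 295 in the second library. The level of the basal members of the first library was thus no higher than that of the near-empty barcodes, and whether these transcripts come from the cells was not tested. Myoepithelial genes stood at only 1.14 per 10000 in the same barcodes and hormone-sensing genes at 1.07. The matrix of the second library starts at 500 UMIs per barcode and gives no such level.

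Luminal members of the second library were of very unequal depth and are divided here at 1500 and 30000 UMIs, bounds set after the values were seen. There were 13 with under 1500 UMIs, 14 with 1500 to 30000 and 8 with more than 30000. The 8 deepest had a median of 61514.5 UMIs and 5466 genes, and milk protein genes took a median of 4878 per 10000 UMIs. The 13 shallowest had a median of 729 UMIs and 391 genes, with a median of 1851 milk UMIs per 10000. Mitochondrial transcripts took a median of 0.852% in these 13, against 2.54% in other cells under 1500 UMIs. The nuclear RNA Malat1 stood at a median of 29.0 per 10000 in them and at 212 in the other cells under 1500 UMIs, and 4 of the 13 had none, against 2.31% of those cells. None of the 13 had a tag call, and none had more than 5 tag counts. Luminal members of the first library included none under 1500 UMIs.

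A few luminal members of the second library carried a hormone-sensing program. Over 10 genes of that state, the highest luminal member of the first library had 3.41 UMIs per 10000, while 4 luminal members of the second library with at least 10000 UMIs had 60.0 to 111. These 4 were singled out by this level after the values were seen, so their levels are a description. Prlr, the prolactin receptor, had 78, 103, 103 and 162 UMIs in them, or 59.8 per 10000 together, and 0.906 per 10000 in the other 31 luminal members. Pgr, the progesterone receptor, had 3 to 18 UMIs in each, and Foxa1, a factor that opens chromatin for the estrogen receptor, 4 to 7 in each. The signal Wnt4 had 3 to 7 UMIs in each of the 4 and 0 in the other 31. Esr1, the estrogen receptor, had 3 UMIs in 1 of the 4 and none in the other 3. Areg, a growth factor released under estrogen, was uneven, with 80 of its 87 UMIs in 1 member, and Cited1 had 38 of 40 in 1 member. Tnfsf11, the signal RANKL, had 0 UMIs in the luminal members of both libraries. A further 3 luminal members of the second library passed 50 per 10000, but each had under 1500 UMIs and rested on 4 UMIs of the list.

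The same 4 members differed from the other luminal members in several genes that did not choose them. Milk protein genes took 1.00 to 33.3 per 10000 UMIs in them. Wfdc18 had 1 UMI in the 4 together (0.134 per 10000) and 219 per 10000 in the other 31. Elf5 stood at 0.804 and 4.89 in the same order, and Ehf, an epithelial transcription factor, at 0 UMIs and 1.51. Keratins were higher: Krt7 stood at 11.1 against 0.249, and Krt19 at 30.9 against 3.68. Genes of milk-making cells were not low in all 4. Cd14 stood at 2.01 against 2.26. Over 9 genes of alveolar cells and luminal progenitors, Elf5, Wfdc18 and Cd14 among them, 1 member of 21011 UMIs with several tags had 81.4 per 10000. The other 3 had 0.832 to 2.77. Milk takes up to 56% of the UMIs of a luminal member of the second library and lowers other levels in those cells accordingly. Of the 4, 1 carried HT2 and 3 carried several tags, and 1 of those with several tags held 9 Ptprc UMIs and 80 of Cd74. Across the 35 luminal members of the second library, the rank correlation (Spearman) between milk and hormone-sensing levels was -0.322, and it was 0.0348 over the 9 of the first library. Both rest on shared depth and on a shared total of UMIs, and no test was made.

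**Figure D4:**
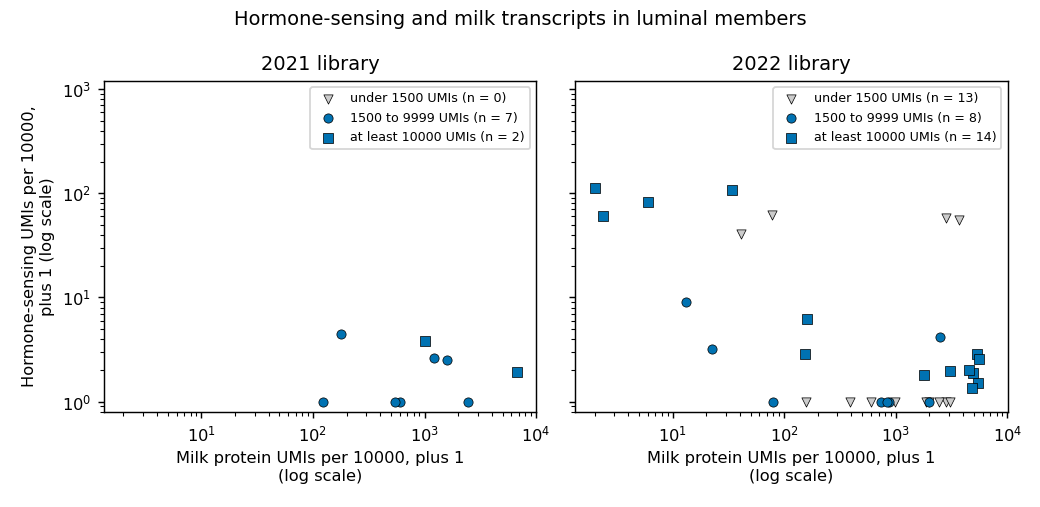
UMIs per 10000 of 10 hormone-sensing genes (y axis) against those of the 8 milk protein genes (x axis), both plus 1 on log scales, in each luminal member, with symbols for depth. The 4 squares at the upper left of the second panel are the members with 60.0 to 111 hormone-sensing UMIs per 10000 and at least 10000 UMIs.

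Basal members carried the contractile program of myoepithelium. Acta2 had 13 to 451 UMIs in the 7 basal members of the first library (median 80) and 18 to 301 in the 8 of the second library (median 41). The rule for classes used Acta2, Krt14 and Krt5, while 10 further myoepithelial genes did not enter it. These 10 summed to 374 UMIs per 10000 in basal members of the first library (range over cells 148 to 515) and 173 in those of the second library (range 27.0 to 415). Luminal members had 1.91 and 0.251, with a highest cell of 13.2 and 3.55. The split on Acta2, Krt14 and Krt5, with mixed members set apart, fixed this difference in part, so it is a description only. All 10 genes were higher in basal members than in the other cells in both years. Myh11, a smooth muscle myosin, stood at 95.9 and 43.6 per 10000 in basal members and 0.358 and 0.0157 in luminal ones. Tagln, an actin-binding protein of smooth muscle, stood at 115 and 41.6, and Mylk, the kinase that starts contraction, at 43.1 and 28.7. Oxtr, the oxytocin receptor, was found in 7 of 7 and 7 of 8 basal members, at 18.2 and 13.1 per 10000, and 50% of all Oxtr UMIs of the cells of the first library lay in its 22 members, against 28.2% in the 47 of the second library. Trp63, the basal lineage factor, was found in 4 of 7 and 5 of 8 basal members and in no luminal member.

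Ranked by the ratio of basal to luminal levels, the 10 leading genes of each year had 7 in common: Acta2, Cnn1, Cxcl14, Myh11, Mylk, Tagln and Tpm2. Acta2 had itself defined the classes, which leaves 6 genes that the rule did not use. Cxcl14, a chemokine, had 89 and 138 UMIs in basal members and 0 in luminal members of both years. Dcn, a matrix proteoglycan on the fibroblast list, was found in 6 of 7 and 8 of 8 basal members at 6.06 and 3.19 per 10000, while Col1a1 and Col1a2, the chains of type I collagen, had 0 UMIs in them. Col3a1, a further collagen, had 2 UMIs in 2 of 7 and 3 UMIs in 1 of 8 basal members. The Krt15 UMIs given above lay in 3 basal members of each year. Genes of the immediate early and heat shock responses stood at 61.6 and 106 per 10000 in basal members, at 23.5 and 26.4 in luminal members and at 15.8 and 27.1 in Cd3e cells. Egr1, an immediate early factor, was found in 7 of 7 and 7 of 8 basal members at 18.8 and 26 per 10000. The basal member on the Involution tag stood apart, with 94 UMIs of Igfbp5, 12 of Prlr and 14 of Cited1 among 8522, beside 21 of Acta2. Its markers were of both layers, with 13 UMIs of Krt8 and Krt18 against 39 of Krt14, Krt5 and Acta2. It also had 5 UMIs of Epcam, 5 of Elf5 and 61 of Csn2. Its hormone-sensing genes stood at 48.1 per 10000, and its 10 myoepithelial genes at 27.0, the lowest among basal members. None of 6 genes of the cell cycle had a UMI in a basal member, and luminal members had 0.955 and 0.847 per 10000, below the 4.89 and 4.07 of Cd3e cells.

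Among 21 genes whose products reach or instruct leukocytes, a few were carried by luminal members. Spp1, the secreted phosphoprotein osteopontin, stood at 75.1 and 84.2 per 10000 in luminal members and at 0.286 and 1.25 in the other cells, in 4 of 9 and 19 of 35 members. It was uneven among them, with medians of 0 and 1 UMIs and maxima of 312 and 1154. Pigr, the receptor that carries IgA into milk, stood at 2.74 and 3.99 per 10000 against 0.0477 and 0.109, in 4 of 9 and 14 of 35 members. Basal members had 0 Pigr UMIs in both years. Tgfb2, a growth factor of the TGF-beta family, had 4 and 39 UMIs in luminal members, at 0.477 and 0.612 per 10000 against 0.00414 and 0.0182. Cx3cl1, a membrane-bound chemokine, was found in 3 of 7 and 7 of 8 basal members, at 1.35 and 1.84 per 10000. Ccl28, a chemokine for IgA plasma cells, had 0 UMIs in luminal members of the first library and 4 in those of the second library, and Il33, Tslp, Il7, Ccl20 and Cxcl5 had 0 UMIs in luminal and basal members. Igfbp5, which rises in the involuting gland, was found in 7 of 9 and 17 of 35 luminal members at 14.2 and 7.44 per 10000, and in 3 of 7 and 8 of 8 basal members at 1.35 and 29.0. The basal members of the second library had a median of 2.5 Igfbp5 UMIs, and the one on the Involution tag held 94.

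Members often lacked a hash tag. No tag was called in 9 of 22 members of the first library (40.9%, interval 20.7% to 63.6%) and in 25 of 47 of the second library (53.2%, interval 38.1% to 67.9%), against 12.5% and 9.98% of the other cells. Luminal members lacked a tag in 7 of 9 and 22 of 35 cases, and basal members in 2 of 7 and 2 of 8. Restricted to barcodes of at least 2000 UMIs, 34.4% of the members of the second library had no tag (11 of 32, interval 18.6% to 53.2%) against 8.45% of the other cells, and 40.9% of those of the first library had none against 19.6%. Under 2000 UMIs, 14 of the 15 members of the second library had none, against 14.9% of the other cells. Several tags were called in 3 members of the first library and 8 of the second library. The sources used here do not name the target of the tag antibodies. MHC class I genes have products that lie on the surface of most cells. With milk protein UMIs left out of the total, they were lower in luminal and in basal members than in the other cells. B2m, the light chain, stood at 2.84 and 7.94 per 10000 in luminal members, against 15.6 and 24.2 in the other cells. H2-K1, a heavy chain, stood at 9.07 and 9.94 against 15.9 and 20.0. Basal members, which lacked a tag less often, had 3.42 and 16.1 of B2m and 5.82 and 10.2 of H2-K1. The part of these genes in the missing tags was not tested.

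**Figure D5:**
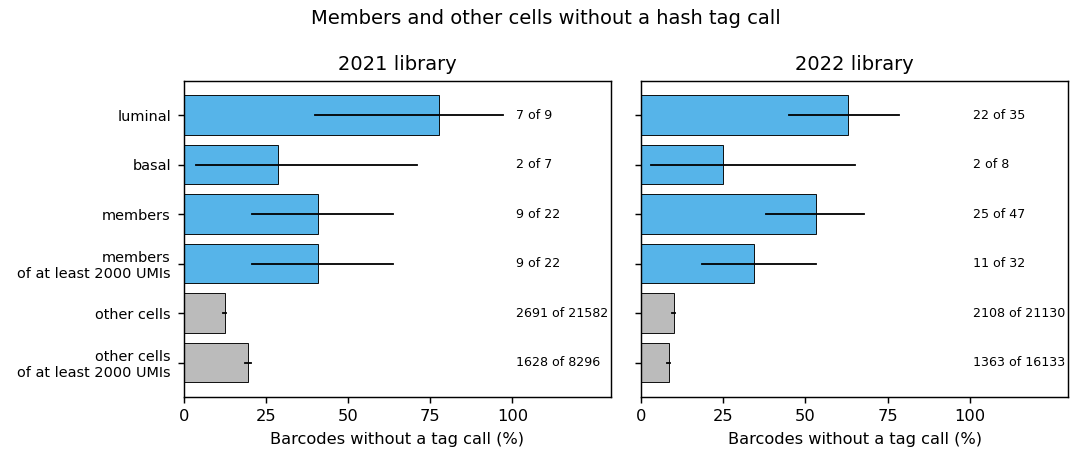
Percent of barcodes without a tag call (x axis from 0) in members and in other cells of each library, with 95% exact binomial intervals and the numbers behind each bar. Luminal members stand at 77.8% (first) and 62.9% (second), above the 12.5% and 9.98% of the other cells.

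Few members could be placed on a named sample. In the first library, 5 members carried the Nulliparous tag (0.0849% of 5887 cells) and 5 the Gestation tag (0.108% of 4618). HT2 had 0 of 2930 and Lactation 0 of 2548, which allow shares of up to 0.102% and 0.118% when 3 counts are taken as the limit, and 0.126% and 0.145% by the exact binomial interval. In the second library the numbers were 3 on HT2, 1 on Gestation, 2 on Lactation, 1 on Involution, 2 on Regression, 1 on Balb/c and 4 on GF, or 0.0292% (Gestation) to 0.252% (Lactation) of the tagged cells. Of the 5 on the Nulliparous tag, 4 are members of neither kind. The 2 on Lactation in the second library are basal and rest on a highest tag count of 5, with 4 counts of the next tag. Among members with 1 tag, the median of the highest tag count was 59 in the first library and 10 in the second library, against 72 and 30 in other cells, and it was under 10 in 7 of the 14 members of the second library. The share of members on Lactation differed from that on Gestation by -0.108 percentage points in the first library and by 0.222 in the second. Over the 4 samples the means were 0.126% and 0.0688%, with an exact two-sided permutation p of 1, in a design that could not go below 0.333. A gene-wise comparison of the 2 stages was not run, because Lactation of the first library had no member and the other 3 samples had 5, 1 and 2, under the minimum of 10 that had been set.

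Milk transcripts are given here for the luminal members with 1 tag, several of which rest on few tag counts. With no tag in 7 of 9 and 22 of 35 luminal members, these calls do not show which samples the milk came from. The luminal member on Gestation of the first library had 6705 milk protein UMIs per 10000, with 31 counts of its tag and 11 of the next. The one on Gestation of the second library had 739, on a highest tag count of 6, and held 6 Ptprc UMIs. The one on Nulliparous of the first library had 600 (543 of 9051 UMIs), the one on Regression of the second library had 153, and the one on Balb/c had 12.1. On HT2 of the second library, 1 luminal member had 873. The other, one of the hormone-sensing members above, had 1.00, on a highest tag count of 9. The highest levels on a tag in the second library were those of the 2 luminal members on GF, with 5453 and 5597 per 10000 among 78723 and 71448 UMIs. Their highest tag count was 4 each, and in the cell of 71448 UMIs another tag had the same count. The mixed member on HT2 of the second library had 5094 per 10000 among 72756 UMIs, on a highest tag count of 8. The Cd3e cells of the same tags stood between 9.14 and 23.1 per 10000 in the second library and between 9.70 and 14.2 in the first library.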

How the data were processed

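The deposited matrices, which hold raw UMI counts for genes and raw counts for hash tags, were used as they are, with 55487 gene entries per library. Libraries followed the 10x Genomics 3' v3.1 protocol, per the labels' protocols. Cell Ranger 6.1.0 and mm10 are named in the submitters' processing notes, and Cell Ranger 4 in the header of the first library's matrix. That matrix lists 1347735 barcodes, and the second library's 21632 of at least 500 UMIs. Tags were called with HTODemux (Seurat 5.3.0, R 4.3.3, quantile 0.99) and doublets with Scrublet (scanpy 1.11.5, expected rate 0.08). Levels are summed UMIs per 10000 UMIs with exact Poisson intervals, and shares have exact binomial intervals, both at 95%. Ratios against a count of 0 used a floor of 3 counts. The ranking and the rule were tested on simulated data. The members and gene lists were chosen with earlier results of these data known. Leading genes are those of highest ratio with at least 50 member UMIs (20 genes), or at least 30 UMIs in the higher class (10 genes). The share of members on Lactation and Gestation was compared by an exact permutation test over 4 samples, with no gene-wise fit, and alternatives are given in the closing section.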

Additional observations from a re-analysis of the deposited data

How the results depend on the processing

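The number of members moved with the threshold. In the first and the second library it was 85 and 100 with a marker sum of at least 2, 9 and 29 with at least 8, 55 and 105 without the exclusion of T cell, B cell and macrophage UMIs, and 5 and 26 in cells thinned to 1000 UMIs. Of these 5 and 26, only 3 and 14 were among the members reported above. Thinning also removes T cell, B cell and macrophage UMIs and so lets other barcodes in. With a marker sum of at least 8, the luminal share of the first library was 66.7% of 9 members. The Gestation tag of the first library had 3 members at that sum and 1 after thinning, and that of the second library had 2 after thinning. The Lactation tag of the second library had 1 member with an HTODemux quantile of 0.95, 0 under a rule on the highest tag count and 1 after thinning. Milk protein UMIs per 10000 in members of the first and the second library were 2499.7 and 3873 in those without a Ptprc UMI and 3288 and 3461 in luminal ones. They were 206 and 387 as a median over cells, and 2032 and 3048 without the cell with the most milk UMIs. Among members of at least 2000 UMIs, an alternative chosen after the data were seen, 34.4% of those of the second library had no tag. The count of members with a keratin UMI was also added after the data were seen. Of 63 alternative values of these results, 39 stayed within 1.5 times a count or within the interval of a share or level. Of 64 for the other tags, 31 moved: the Nulliparous tag had 11 members under the highest tag rule, 1 at a sum of 8 and 0 after thinning, and GF had 2, 2 and 0. The gene-wise fit of Lactation against Gestation and its alternatives were not run. With a replicate block for the library, added after the data were seen, the difference in member share between Lactation and Gestation was 0.0570 percentage points, as without it, and the exact paired permutation p was 1 (0.5 is the smallest it can give). Intervals cover counting error only, and the median depths of 1599 and 3049 UMIs limit how many epithelial cells reach 4 marker UMIs.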

Other observations

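More barcodes with epithelial markers lay outside the rule than inside it. Of 55 barcodes of the first library with at least 4 marker UMIs, 33 were left out for T cell, B cell or macrophage UMIs, and of 105 of the second library, 58 were left out. These barcodes were deeper than the members, with medians of 8131 and 20913.5 UMIs against 4805 and 5631. In 18 of the 33 and 19 of the 58, at most 5 UMIs of the excluding genes were found. The highest marker sum of the second library, 1051 UMIs, was in a left-out barcode of 113209 UMIs. Left-out barcodes held a further 27.4% and 43.8% of all milk protein UMIs in cells, beside the 31.5% and 37.6% in members. A Ptprc UMI was found in 21 of the 33 and 42 of the 58, and Scrublet marked 1 and 3 of them as doublets.

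Barcodes just under the threshold differed between the libraries. Those with a marker sum of 3 had a median of 3.17 milk protein UMIs per 10000 in the first library, and 1198 in the second library at a median of 1096 UMIs per barcode.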
